A study of Hydra vulgaris with 113 samples.

Results

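The head-regeneration peaks are 803 of 115968 regions of open chromatin mapped by ATAC-seq in regenerating tips of the freshwater polyp Hydra vulgaris. They were chosen because they were alike on both sides of the cut at 0 h and more accessible in head than in foot regenerates at both 8 and 12 h. Levels were deposited counts scaled to a total of 1000000 (1 M) over the peaks of each library (CPM), averaged over the libraries of a group and expressed as log2(mean CPM + 0.5). A peak was taken when its untreated head level was above its untreated foot level by 0.5 or more on this log2 scale at 8 h and at 12 h. Its sides also had to differ by less than 0.3 at 0 h, and its mean level in 12 h head regenerates had to be 1.5 CPM or more. Of all peaks, 83811 met the minimum level (called comparison peaks here), 2833 of these met the difference at 8 h and 1149 met it at 12 h as well. The limit at 0 h then removed 249 peaks that were already higher in head and 97 that were higher in foot. The same rule with the sides exchanged took 170 peaks, so the members outnumbered their foot counterparts. The members were thus chosen by the untreated values at 0, 8 and 12 h, and the head-foot differences of those groups are given as description only. Tests of head against foot are given only for untreated tips at 3 h and for tips kept in iCRT14, whose libraries played no part in the choice. Tests that set these groups against untreated 0 h tips use libraries that entered the choice through their head-foot difference. For the members as a set they are given with values from left-out 0 h libraries, and for single peaks without such values.

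A Hydra cut across the body column regrows a head at the wound of the lower piece and a foot at the wound of the upper piece. Both wounds expose body column tissue that was continuous before the cut. Canonical Wnt signalling, in which stabilised β-catenin binds TCF factors on DNA and turns on target genes, marks the head organizer of Hydra and takes part in regrowing a head. iCRT14 is a small molecule that interferes with the binding of β-catenin to TCF. ATAC-seq cuts accessible DNA with a transposase, and a higher count in a peak means that the region was accessible more often over all cells of the sample. Such regions include promoters and enhancers. The deposited tables do not pair peaks with genes, so members are named here by their number in the deposited peak set and their scaffold position.

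All libraries came from strain 105 polyps bisected at mid body column, and each library pooled 15 regenerating tips cut from the wound end of the pieces. Untreated head and foot regenerates were collected at 0, 3, 8 and 12 h, with 5 libraries a group, except 3 at 3 h. The iCRT14 groups had 4 or 5 libraries each and were kept in 5 µM iCRT14 from 2 h before amputation until collection, so that exposure lasted 2, 5, 10 and 14 h. Whether the untreated polyps received the solvent of iCRT14 is not given in the sources used here, and the whole tip, with all its cell types, was measured. A peak that is open in fewer cells of a type and one that is less open in each such cell cannot be told apart in these samples. The 71 libraries held 4.73 to 42.3 M counts in peaks, with a median of 13.6 M. Untreated 3 h libraries were the deepest (27.1 to 42.3 M) and iCRT14 head libraries at 8 h among the shallowest (4.73 to 10.2 M).

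Together the 803 peaks took up a small part of each library, and that part followed time and side. In untreated head regenerates the members' share of counts was 0.832 to 1.08% at 0 h, 1.19 to 1.36% at 3 h, 1.24 to 1.81% at 8 h and 1.71 to 1.83% at 12 h. In untreated foot regenerates it was 0.827 to 0.997% at 0 h, 1.37 to 1.40% at 3 h, 0.720 to 0.983% at 8 h and 0.905 to 0.989% at 12 h. Both sides were thus higher at 3 h than at 0 h in every library, and the foot share at 8 and 12 h lay back in the 0 h range or below it. In iCRT14 the foot shares at 8 h (1.01 to 1.21%) lay above all untreated foot shares at 8 h. The iCRT14 head shares at 12 h (1.499 to 2.04%) spanned the untreated ones.

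**Figure D1:**
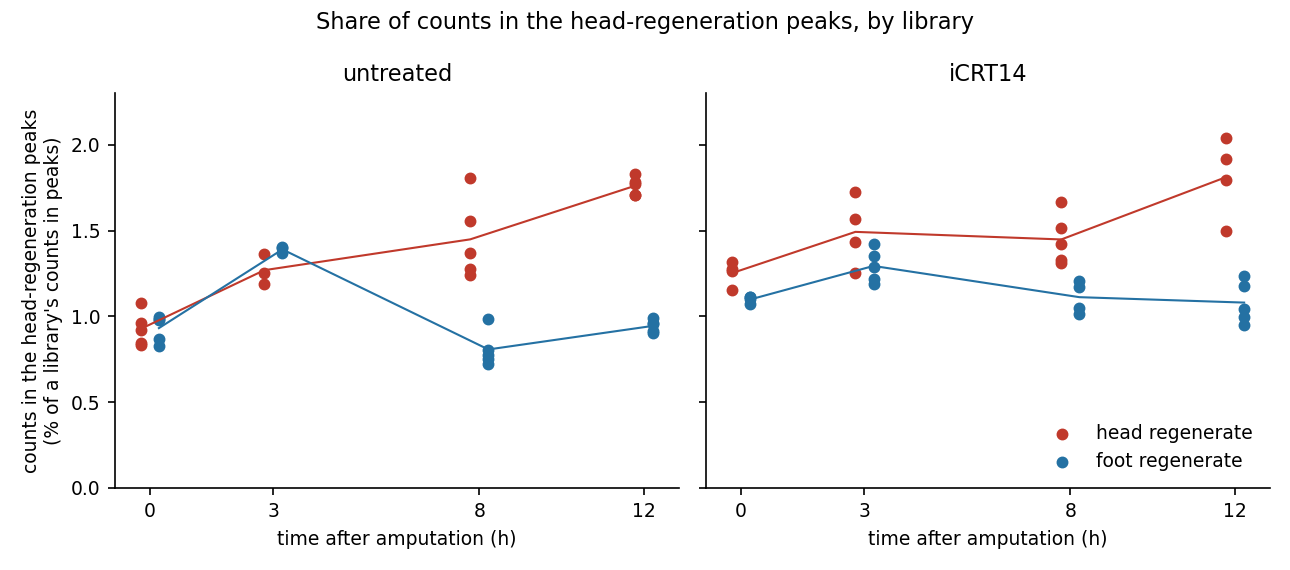
Counts in the 803 peaks as a percentage of all counts in peaks, plotted against hours after amputation for untreated (left) and iCRT14 (right) tips. Each point is a library and lines join group means; at 3 h the untreated foot libraries (1.37 to 1.40%) lie above the untreated head libraries (1.19 to 1.36%), and at 8 and 12 h the order is the opposite.

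The difference at 8 and 12 h came mainly from higher levels in head than from lower levels in foot. From 0 to 12 h the median change of the members was 1.03 in head and 0.16 in foot on the log2 scale, and from 0 to 8 h it was 0.74 in head and -0.00023 in foot. The comparison peaks had medians of 0.032 in head and 0.045 in foot at 12 h, and of 0.053 and 0.075 at 8 h. Calling a peak opened when it was 0.3 or more above its 0 h level and closed when it was 0.3 or more below, 693 members (86.3%) were opened in head at 12 h and 137 (17.1%) were closed in foot. Among comparison peaks the corresponding shares were 23.4 and 15.6%. The members divided at 12 h into 335 that were opened in head with foot within 0.3 of its 0 h level, 307 opened on both sides but further in head, 71 closed in foot with head within 0.3, 51 opened in head and closed in foot, 15 closed on both sides and 24 within 0.3 on both sides. At 8 h a larger number, 420, was opened in head alone, 174 were opened on both sides and 185 were closed in foot. These classes rest on the values that chose the members. When members were chosen again without 1 replicate and read in the libraries left out, the median change from 0 h in head was 0.66 ± 0.12 at 8 h and 0.96 ± 0.12 at 12 h (SD over 5 left-out replicates), and in foot 0.0074 ± 0.15 and 0.17 ± 0.084.

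**Figure D2:**
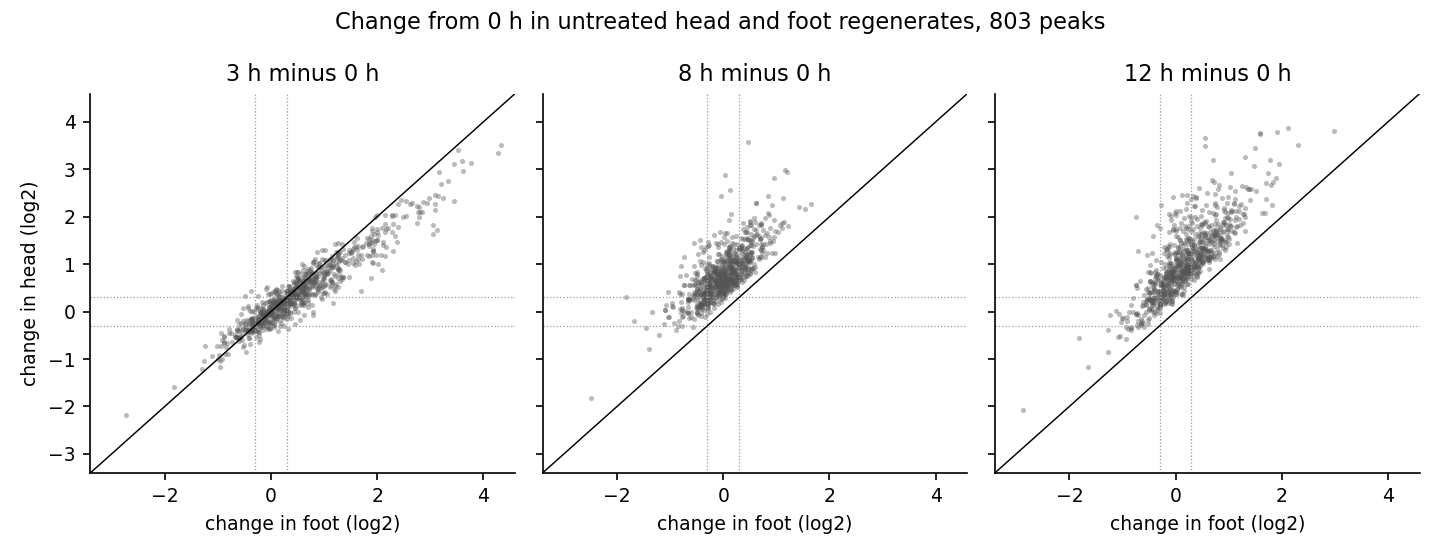
Change of each of the 803 peaks from its 0 h level in untreated foot (horizontal axis) and head (vertical axis) regenerates, in log2 units, at 3, 8 and 12 h. Dotted lines mark changes of 0.3 either way and the solid line equal change on both sides; at 3 h the peaks follow the line up to large changes on both sides, and at 8 and 12 h all lie above it, as the choice of members requires.

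At 3 h the members behaved much alike on the 2 sides: many were more accessible than at 0 h in head and foot together. The choice of members did not use the 3 h libraries but used those of 0 h, through the difference between the sides. The change from 0 to 3 h was tested with edgeR's quasi-likelihood test over all 108934 peaks that passed its filter on low counts, which all 803 members passed. At an adjusted p below 0.05, 316 members rose in head from 0 to 3 h, where 5.43% of all peaks tested rose, and 33 fell, where 5.94% of all peaks fell. In foot 341 members rose (6.60% of all peaks rose) and 59 fell (8.40% of all peaks fell). When members were chosen again without 1 replicate and the 0 h level was read in the library left out, the median change to 3 h was 0.33 ± 0.096 in head and 0.42 ± 0.092 in foot (SD over 5 left-out replicates), against 0.34 and 0.41 with all libraries. Of the members called, 278 rose on both sides, which is 88.0% of those that rose in head and 81.5% of those that rose in foot. Leaving out replicate 3 lowered the calls in head to 205 that rose and 23 that fell. By the 0.3 limit, 389 members were opened on both sides at 3 h, 198 were within 0.3 on both sides, 72 were closed on both sides, 65 were opened in foot but not in head, 24 were opened in head with foot within 0.3 and 2 were opened in head and closed in foot.

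The side difference at 3 h leaned towards foot, opposite to its direction at 8 h. Its median over members was -0.099 on the log2 scale, against -0.025 for the comparison peaks, with 516 members higher in foot and 287 higher in head. Only 11 members had a difference of 0.5 or more in favour of head, and 99 had one of that size in favour of foot. In the edgeR test 3 members were higher in head (0.442% of all peaks were) and 10 were higher in foot (0.490% of all peaks were). Same-numbered head and foot libraries at 3 h deviated together from their group means, and with the replicate number as a block 47 members were higher in head (2.79% of all peaks) and 141 higher in foot (3.25% of all peaks). A fit to the 2 groups alone without that block called none in either direction, with 148 members at an unadjusted p below 0.05. With 1 of the 3 replicates left out, edgeR called 2 to 4 members, all higher in foot.

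The 3 members called higher in head at 3 h, a smaller share than the 0.442% of all peaks, were peaks 15959, 69120 and 23434. In peak 15959 (Sc4wPfr_135, 442697 to 443162) the head libraries had 30.8, 32.2 and 29.3 CPM at 3 h and the foot libraries 19.8, 15.6 and 21.6 CPM. All head values lay above all foot values, and both sides were below their 0 h values of 36.3 to 45.3 CPM in head and 29.4 to 37.1 CPM in foot. The fitted log2 difference at 3 h was 0.75 ± 0.19 (SE, edgeR adjusted p = 0.0277). Peak 69120 (Sc4wPfr_417.3, 1598314 to 1598981) had 19.0, 21.6 and 21.4 CPM in head against 12.8, 11.9 and 13.5 CPM in foot (edgeR adjusted p = 0.0167), again without overlap. Peak 23434 (Sc4wPfr_163, 363528 to 364149) had 25.6, 13.3 and 18.0 CPM against 14.1, 9.39 and 11.0 CPM, ranges that overlapped (edgeR adjusted p = 0.0492). Each of these calls was lost without replicate 1, 2 or 3, with adjusted p from 0.109 to 0.635 over the 3 peaks, and peak 23434 was called in no other unblocked fit that was run.

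Opposite to these, peaks 26137 and 26138, neighbours on scaffold Sc4wPfr_1729, were among those higher in foot at 3 h. In peak 26137 (107099 to 107338) the 3 h foot libraries had 13.5, 8.62 and 8.18 CPM and the 3 h head libraries 4.17, 3.22 and 4.26 CPM. At 8 h the order was reversed, with 0.941, 0.679, 1.44, 1.16 and 1.52 CPM in foot and 4.78, 3.47, 3.72, 4.30 and 7.16 CPM in head. The foot side therefore had its highest values at 3 h and values below 0 h (1.85 to 2.90 CPM) at 8 h. At 3 h the fitted log2 difference was -1.31 ± 0.31 in peak 26137 (SE, edgeR adjusted p = 0.0101) and -1.16 ± 0.25 in peak 26138 (edgeR adjusted p = 0.00387). Without replicate 1 or 2 the first, and without replicate 1 or 3 the second, no longer passed (adjusted p from 0.117 to 0.244).

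Between 3 and 8 h the members' sides parted in 2 ways, according to their 3 h pattern. The 389 members opened on both sides at 3 h had a median head level of 3.41 at 3 h and 3.46 at 8 h, and a median foot level of 3.64 at 3 h and 2.60 at 8 h, all as log2(mean CPM + 0.5). In 351 of them the foot level at 8 h was 0.3 or more below its 3 h level, and in 116 the head level was 0.3 or more above. The 198 members within 0.3 on both sides at 3 h had a foot level of 2.44 at 3 h and 2.43 at 8 h, and a head level of 2.46 at 3 h and 3.10 at 8 h. In 157 of those the head level was 0.3 or more above 3 h and in 63 the foot level was that much below. The first pattern is thus an early opening on both sides that persisted in head and was mostly gone in foot at 8 h. Its median foot level was 2.24 at 0 h and 2.90 at 12 h, so part of the opening was present in foot at 12 h. The second pattern is a later opening in head. The 72 members closed on both sides at 3 h had median levels of 2.70 in head and 2.81 in foot at 3 h, then 3.88 in head and 2.93 in foot at 8 h. These classes were cut from the 3 h libraries from which the later changes start, and the 8 h values had a part in choosing the members, so no test is given.

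**Figure D3:**
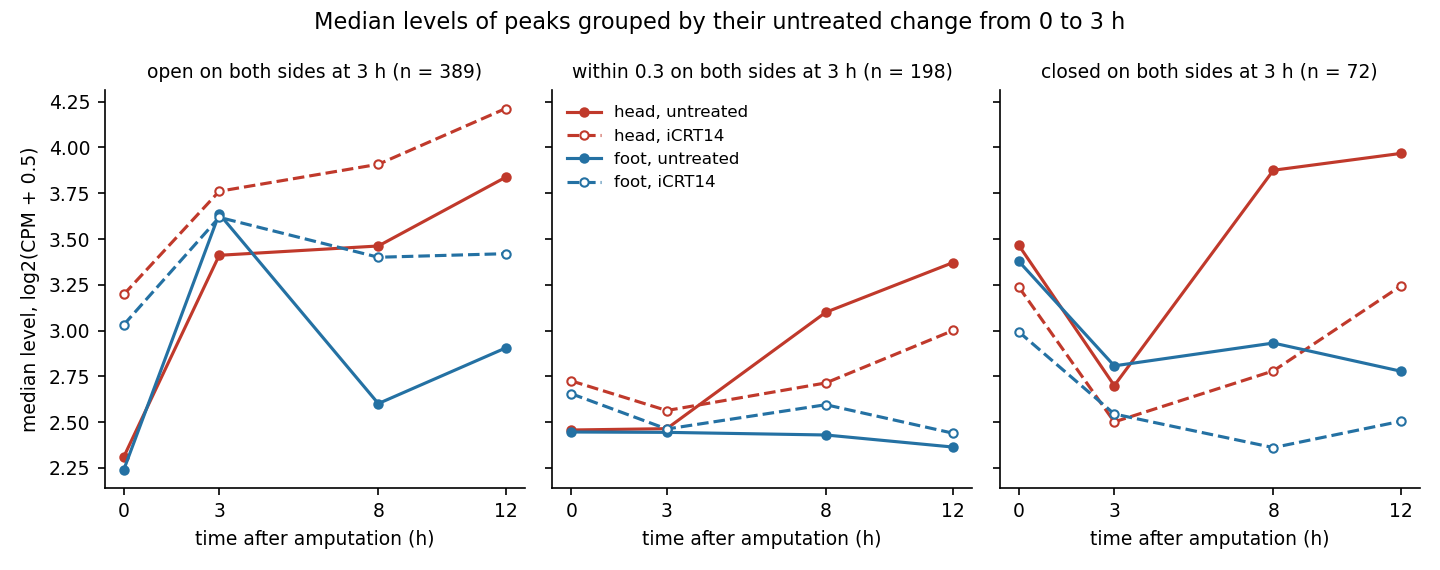
Median level, log2(CPM + 0.5), of 3 groups of members against hours after amputation: 389 opened on both sides at 3 h, 198 within 0.3 on both sides and 72 closed on both sides. Red is head, blue is foot, solid lines are untreated and dashed lines iCRT14; in the first group the untreated foot line goes from 3.64 at 3 h to 2.60 at 8 h, and in the second the untreated head line goes from 2.46 to 3.10.

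The members with the greatest untreated differences show both courses, and their values are a description of what the rule took. Peak 36395 (Sc4wPfr_224.1, 63486 to 63783) was the greatest of all, with a mean difference of 2.71 over 8 and 12 h. It had 0.493 to 1.12 CPM in head and 0.389 to 1.17 CPM in foot at 0 h, and 1.75, 1.61 and 1.33 CPM in head and 2.87, 2.33 and 3.55 CPM in foot at 3 h. Every 3 h library was above the 0 h range of its side, and the change was 1.03 ± 0.31 in head (SE, edgeR adjusted p = 0.0188) and 1.71 ± 0.30 in foot (edgeR adjusted p = 5.49e-06), where the call in head was lost without replicate 2, 3 or 4 (adjusted p up to 0.101). At 8 h the head libraries had 22.3, 7.46, 10.9, 13.2 and 19.4 CPM and the foot libraries 2.01, 0.926, 1.21, 1.91 and 0.832 CPM. At 12 h they had 10.8, 12.6, 10.6, 13.7 and 8.72 CPM in head and 2.23, 1.63, 1.64, 1.78 and 1.34 CPM in foot, so head and foot were far apart at both times while foot stayed near or above its 0 h range.

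Peak 54145 (Sc4wPfr_319, 2496928 to 2497903) took the late course. Its head libraries had 6.78, 7.33 and 7.80 CPM at 3 h and its foot libraries 9.25, 6.54 and 9.29 CPM, in or near the 0 h ranges of 6.32 to 9.72 and 7.03 to 9.81 CPM. At 8 h head had 57.4, 42.5, 48.0, 51.8 and 60.1 CPM and foot 11.8, 10.8, 8.19, 9.37 and 8.35 CPM. At 12 h head had 45.8, 50.1, 27.5, 24.7 and 26.2 CPM and foot 6.12, 6.06, 5.27, 4.83 and 3.16 CPM, so that foot was below its 0 h range in every library by then.

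Peak 39954 (Sc4wPfr_240, 691522 to 693028) had the strongest transient opening among the 6 greatest. Its 0 h libraries ran from 3.72 to 27.5 CPM in head and from 4.65 to 33.2 CPM in foot. At 3 h head had 169, 92.2 and 130.5 CPM and foot 198, 155 and 164 CPM, a rise of 3.49 ± 0.35 in head and 3.53 ± 0.35 in foot on the log2 scale (SE, edgeR adjusted p = 3.87e-13 and 1e-13). All 3 h values lay above all 0 h values on both sides. At 8 h head still had 64.5 to 126 CPM, and foot was at 12.7, 11.4, 13.3, 14.5 and 22.2 CPM, inside its 0 h range, before reaching 32.9 to 48.1 CPM at 12 h. The other 3 of the 6 greatest were peak 39395 (Sc4wPfr_239, 537417 to 537663), peak 93538 (Sc4wPfr_649, 263688 to 264204) and peak 52087 (Sc4wPfr_303, 1173592 to 1173898), with mean differences of 2.37, 2.05 and 2.02.

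In a minority the head level had not risen, and the largest falls in foot among members not opened in head were in peaks 86112, 86113 and 93540. These peaks were picked by their fall in foot from 0 to 12 h. The tests of 3 h against 0 h below reuse the 0 h libraries of that choice, which can enlarge the falls. Peak 86112 (Sc4wPfr_569, 305709 to 307876) was one of the most accessible members at 0 h, with 137 to 224 CPM in head and 142 to 202 CPM in foot. At 3 h it had 30.3, 51.2 and 26.7 CPM in head and 20.7, 26.3 and 24.5 CPM in foot, a change of -2.1695 on the log2 scale in head (SE 0.29, edgeR adjusted p = 1.54e-08) and of -2.79 in foot (SE 0.30, edgeR adjusted p = 5.65e-12). At 12 h it had 42.3, 51.7, 32.7, 31.6 and 36.3 CPM in head and 22.3, 26.9, 22.6, 16.3 and 19.8 CPM in foot, so both sides stayed far under 0 h and foot was the lower. Peak 86113 is its neighbour on the same scaffold (310911 to 312303). Peak 93540 (Sc4wPfr_649, 265752 to 266554) went from 29.3 to 40.5 CPM in head and 29.7 to 35.7 CPM in foot at 0 h to 10.1, 12.4 and 11.2 CPM and 8.59, 9.23 and 8.32 CPM at 3 h. The fall was 1.60 in head (SE 0.18, edgeR adjusted p = 1.28e-10) and 1.93 in foot (SE 0.19, edgeR adjusted p = 1.01e-13). By 8 h head was at 31.8, 21.3, 27.5, 28.7 and 41.6 CPM, from below to above its 0 h range. Foot remained at 7.91 to 11.9 CPM. At 12 h head was at 17.1, 17.0, 16.7, 10.5 and 14.8 CPM, below its 0 h range in every library. Foot was then at 7.86 to 12.8 CPM, so the sides overlapped.

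In iCRT14 the head-foot difference was present but smaller at 8 h and close to its untreated size at 12 h. The median member difference was 0.29 in iCRT14 against 0.72 in untreated tips at 8 h, or 39.6% of it, and 0.67 against 0.79 at 12 h, or 84.5%. These shares do not allow for the state at 0 h. The median difference was then already 0.16 in iCRT14, against 0.015 in untreated tips, which the rule held near 0. Part of the iCRT14 difference at 8 and 12 h was thus present at 0 h. Since the choice can enlarge the untreated values at 8 and 12 h, the kept share was also taken in another way. Members were chosen without 1 replicate, and their untreated values were read in the libraries left out. The untreated difference was then 0.69 ± 0.079 at 8 h and 0.77 ± 0.034 at 12 h (SD over 5 left-out replicates). The kept share was 39.4% at 8 h (37.4 to 42.4% over the left-out untreated replicates) and 85.0% at 12 h (77.6 to 90.3%). All iCRT14 libraries were used each time, so these ranges omit the spread between them. With 1 replicate dropped from untreated and iCRT14 groups alike, the kept share was 33.4 to 42.5% at 8 h and 75.4 to 92.0% at 12 h. Per member, 312 kept 50% or more of their difference at 8 h and 597 did so at 12 h, while 168 at 8 h and 21 at 12 h had no difference in favour of head. A difference of 0.5 or more in iCRT14 was found in 198 members at both times, in 349 at 12 h alone, in 34 at 8 h alone and in 222 at neither. Among comparison peaks 3.47% reached 0.5 at 8 h and 5.52% at 12 h, against 232 (28.9%) and 547 (68.1%) of the members.

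The test of head against foot within iCRT14 used no value of the choice. At 8 h edgeR called 122 members higher in head, where 0.812% of all peaks tested were called so, and 3 lower (0.486%). At 12 h it called 473 members higher in head (3.06% of all peaks) and none lower (1.59%), with 0 members lower at an unadjusted p below 0.05 and none lower in DESeq2. Of the 122 called at 8 h, 111 were called at 12 h too (91.0% of the 8 h calls and 23.5% of the 12 h calls). The 8 h count was sensitive to single replicates, with 71 calls without replicate 1, 79 without replicate 2, 74 without replicate 3 and 69 without replicate 4. A comparison of the difference at 12 h with that at 8 h, added after the data were seen, called 18 members with a larger difference at 12 h (0.0845% of all peaks) and none with a smaller one (0.00734% of all peaks). That count fell to 3, 4 and 8 without replicates 2, 3 and 4. The iCRT14 libraries at 8 h were shallower than those at 12 h (head 4.73 to 10.2 against 11.1 to 14.6 M counts), and the part of depth in the 8 h count was not tested.

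**Figure D4:**
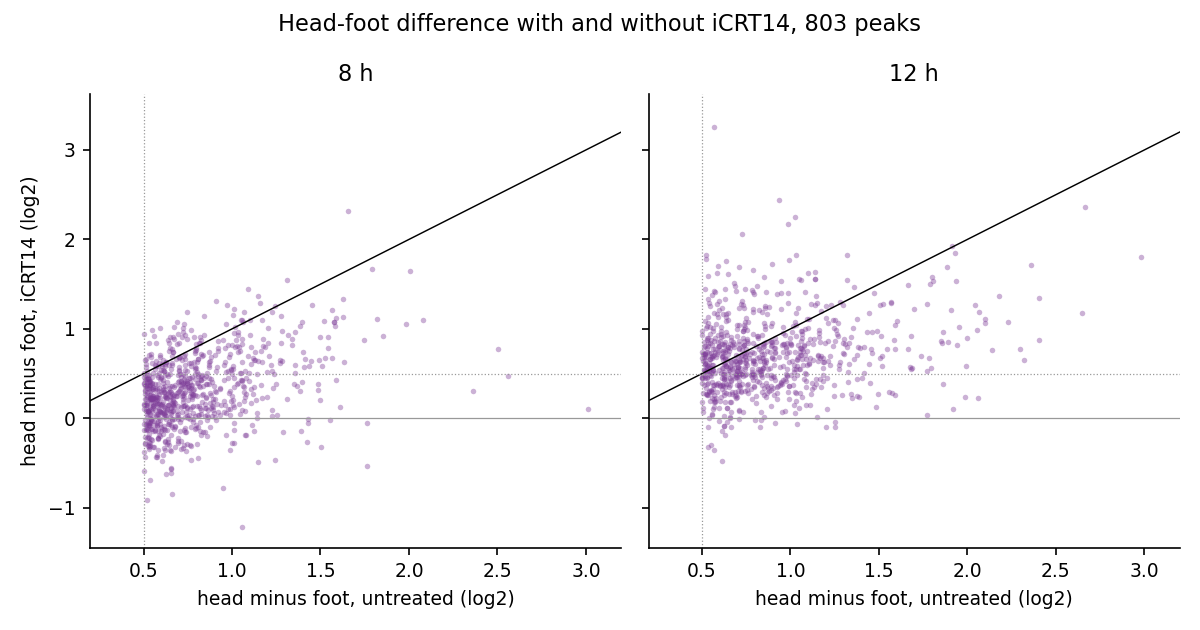
Head minus foot difference in iCRT14 (vertical axis) against that in untreated tips (horizontal axis) for each of the 803 peaks at 8 h and 12 h, in log2 units. The solid line marks equal differences and dotted lines 0.5; at 8 h 635 peaks lie above 0 in iCRT14 and at 12 h 782 do, and no peak lies left of 0.5 in untreated tips because of the choice.

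At 8 h the side on which iCRT14 tips departed from untreated ones depended on the baseline. Against untreated tips the median member was 0.41 higher in iCRT14 foot and 0.094 lower in iCRT14 head at 8 h, where comparison peaks had 0.044 and 0.019. Read in left-out replicates, these values were 0.38 ± 0.12 for foot and -0.014 ± 0.15 for head (SD, n = 5). At 12 h the left-out values were 0.12 ± 0.050 for foot and 0.022 ± 0.064 for head. Thus the foot values at both times were larger than the spread between left-out untreated replicates, which does not measure the spread of the iCRT14 libraries, and both head values lay within it. Counted from each group's own 0 h level, which was higher in iCRT14 as given further on, the order was the opposite. The median change by 8 h was then 0.18 in iCRT14 head against 0.74 in untreated head, and 0.038 in iCRT14 foot against -0.00023 in untreated foot.

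Within iCRT14 the change from 0 h was called in both directions at 8 h and mainly upwards in head at 12 h. In head at 8 h edgeR called 251 members higher than at 0 h (13.7% of all peaks were) and 136 lower (12.7%). In head at 12 h 416 members rose (7.86% of all peaks) and 23 fell (6.57%). In foot 144 rose (6.19%) and 133 fell (8.14%) at 8 h, and 156 rose (7.37%) and 123 fell (5.90%) at 12 h. For the foot the balance at 12 h depended on scaling, with 143 that rose and 154 that fell when library size alone was used. That scaling moved the median of all peaks from -0.063 to -0.15 for this comparison. A test of whether the side difference at 12 h exceeded that at 0 h in iCRT14, also added later, called 108 members (0.428% of all peaks) and 34 to 36 without replicate 2, 3 or 4.

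The 2 courses seen in untreated tips had different medians in iCRT14. Members opened on both sides at 3 h in untreated tips had a median iCRT14 difference of 0.46 at 8 h, 60.7% of their untreated one, and 93 of 389 were called higher in head. Members within 0.3 on both sides at 3 h had 0.15, or 22.6%, and 9 of 198 were called. At 12 h the median iCRT14 differences were 0.74 (93.0%) and 0.59 (71.4%), with 262 of 389 and 101 of 198 called higher in head. Of all peaks tested, 0.812% were called higher in iCRT14 head at 8 h and 3.06% at 12 h. No test of the difference between these classes was made. The first class also had the higher levels in iCRT14 (median head level of 4.21 against 3.00 at 12 h), and the part of level in these counts was not tested.

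Single members show how far the iCRT14 values ranged. Peak 54145 had 18.3, 16.8, 17.3, 23.0 and 23.6 CPM in iCRT14 head and 20.8, 13.7, 14.7 and 14.5 CPM in iCRT14 foot at 8 h, ranges that overlapped (log2 difference 0.32 ± 0.17 SE, edgeR adjusted p = 0.451). At 12 h it had 31.02, 33.8, 27.4 and 32.6 CPM in head and 5.69, 6.69, 5.42, 3.76 and 6.88 CPM in foot, far apart (2.46 ± 0.17, edgeR adjusted p = 1.19e-19). Its untreated head at 8 h, 42.5 to 60.1 CPM, was above every iCRT14 head library at 8 h, while at 12 h the untreated head range of 24.7 to 50.1 CPM held all of them.

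Peak 36395 had 1.18, 2.72, 3.71, 3.38 and 5.81 CPM in iCRT14 head at 8 h against 2.29, 1.86, 4.66 and 3.49 CPM in foot, which overlapped (edgeR adjusted p = 0.895). At 12 h it had 5.41, 2.15, 2.07 and 3.06 CPM in head against 1.25, 0.662, 0.803, 1.25 and 0.776 CPM in foot (1.75 ± 0.33, edgeR adjusted p = 0.000153). All iCRT14 head values at both times were below all untreated head values, though head again exceeded foot at 12 h. Peak 93538 was called higher in head at both times, by 0.93 ± 0.20 at 8 h (SE, edgeR adjusted p = 0.00347, and 0.0531 in the fit to its 2 groups alone) and by 1.79 ± 0.18 at 12 h (edgeR adjusted p = 2.25e-12). Peaks 52087 and 39395 were called at 12 h, by 1.34 ± 0.25 (edgeR adjusted p = 0.000102) and 2.28 ± 0.31 (edgeR adjusted p = 8.99e-08), and peak 39954 was not (0.73 ± 0.31, edgeR adjusted p = 0.196). In the fits to its 2 groups alone peak 39954 did pass, with an adjusted p of 0.00337 in edgeR.

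Peak 26137 had a larger difference in iCRT14 than without it at both times. It had 15.1, 17.1, 12.9, 14.6 and 17.6 CPM in iCRT14 head at 8 h and 5.63, 3.23, 1.17 and 0.727 CPM in foot. At 12 h it had 7.74, 11.8, 24.5 and 17.2 CPM in iCRT14 head and 1.33, 0.662, 1.10, 0.895 and 1.77 CPM in foot, against 4.26, 2.14, 2.78, 2.76 and 2.81 CPM in untreated head and 1.32, 2.49, 2.23, 1.15 and 1.95 CPM in untreated foot. Every iCRT14 head library was above every untreated head library at both times, and head and foot did not overlap within iCRT14. The difference was 2.42 ± 0.31 at 8 h (SE, edgeR adjusted p = 1.5e-07) and 3.79 ± 0.32 at 12 h (edgeR adjusted p = 1.28e-15). Its neighbour 26138 had 1.76 ± 0.25 and 2.72 ± 0.26 (edgeR adjusted p = 3.42e-06 and 1.19e-13). From mean CPM, the difference of peak 26138 was smaller in iCRT14 than without it at 8 h (1.65 against 2.00) and larger at 12 h (2.44 against 0.93).

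In peak 109108 (Sc4wPfr_868, 504603 to 505240) the iCRT14 difference went with a lower foot. Its iCRT14 foot libraries had 6.27, 8.46, 8.30 and 8.16 CPM at 0 h and 2.05, 2.06, 1.91, 0.448 and 2.77 CPM at 12 h, a fall of 2.01 on the log2 scale (SE 0.26, edgeR adjusted p = 6.89e-09). Its iCRT14 head libraries had 13.4, 11.9, 7.24 and 10.2 CPM at 0 h and 11.8, 8.46, 8.57 and 11.6 CPM at 12 h, ranges that overlapped. The side difference was 1.23 ± 0.28 at 8 h (SE, edgeR adjusted p = 0.00772, and from 0.0680 to 0.121 without replicate 1, 2 or 4) and 2.47 ± 0.26 at 12 h (edgeR adjusted p = 6.9e-12).

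Peak 110190 (Sc4wPfr_884, 396501 to 397771) had 48.3, 23.6, 21.1, 42.0 and 64.3 CPM in iCRT14 head at 8 h against 13.8, 10.8, 12.4 and 11.9 CPM in foot (1.74 ± 0.43 SE, edgeR adjusted p = 0.0165, and 0.103 without replicate 4). At 12 h it had 38.6, 56.0, 49.7 and 45.001 CPM against 15.5, 9.71, 15.5, 9.58 and 13.9 CPM (1.90 ± 0.40, edgeR adjusted p = 0.00071). Head was above foot in every library at both times. The difference of peak 93540, one of those with a low foot, was 1.83 ± 0.20 in iCRT14 at 12 h (edgeR adjusted p = 2.15e-11), with 17.4, 13.0, 10.7 and 15.1 CPM in head and 6.05, 3.90, 2.21, 3.58 and 4.10 CPM in foot.

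At the other end, 13 members had an iCRT14 difference of 0 or below at both 8 and 12 h. Their tests in iCRT14 use the libraries that picked them. High p-values therefore follow from the choice and are no evidence of equal sides. Among these 13 members, peak 14861 (Sc4wPfr_132, 891119 to 891478) had the greatest untreated difference. Its untreated head libraries at 12 h had 5.13, 5.47, 5.92, 6.40 and 8.58 CPM and its untreated foot libraries 1.32, 3.65, 2.46, 2.62 and 1.70 CPM. In iCRT14 at 12 h head had 2.60, 1.52, 2.16 and 2.15 CPM and foot 1.33, 1.62, 2.51, 1.61 and 3.88 CPM, so that all iCRT14 head values were below all untreated head values and within the range of iCRT14 foot (-0.02 ± 0.34 SE, edgeR adjusted p = 0.986). Peak 48867, the fourth by untreated difference (Sc4wPfr_287.2, 765131 to 765342) had 3.08, 2.15, 3.34 and 2.15 CPM in iCRT14 head and 2.14, 3.68, 3.31, 2.24 and 2.22 CPM in iCRT14 foot at 12 h (-0.02 ± 0.26, edgeR adjusted p = 0.987). Here the untreated head (1.86 to 3.78 CPM) overlapped the iCRT14 head, and it was the foot that was higher in iCRT14 than without it (untreated 1.22 to 1.81 CPM). The others of the 5 greatest were peaks 114578, 55273 and 107375, the last with the smallest untreated difference of the 5. At the few CPM of peaks 14861 and 48867 a difference well above 1 standard error could also go uncalled. This happened in peak 39954 in iCRT14 at 12 h, with 0.73 ± 0.31 (SE, edgeR adjusted p = 0.196).

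**Figure D5:**
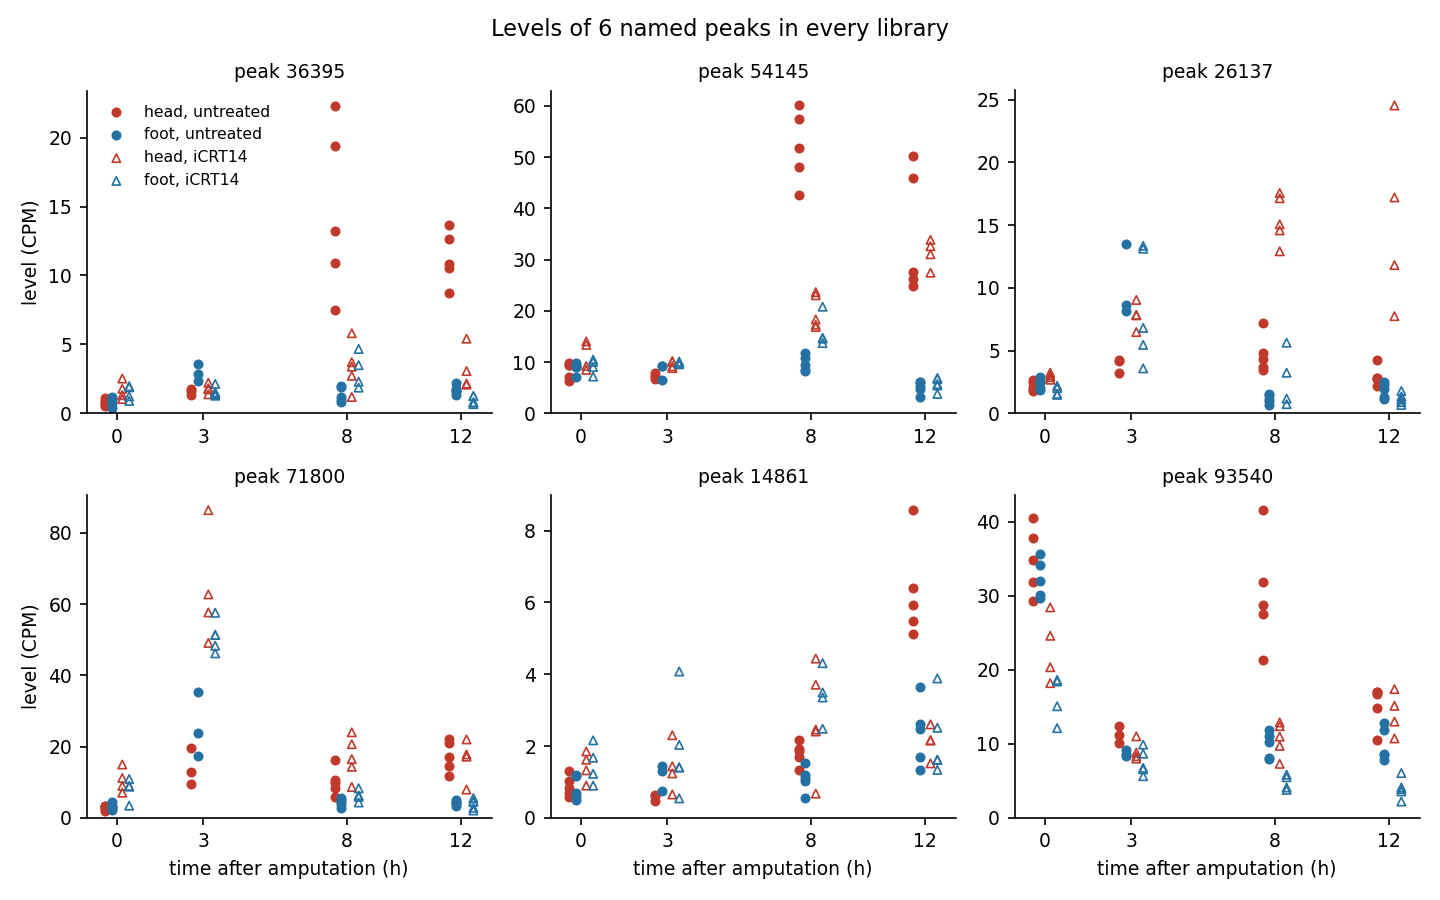
Levels in CPM of 6 named peaks in every library against hours after amputation, with head in red and foot in blue, untreated as filled circles and iCRT14 as open triangles, set slightly apart for each time. Peak 14861 has iCRT14 head values at 12 h of 1.52 to 2.60 CPM against 5.13 to 8.58 CPM in untreated head, and peak 26137 has 7.74 to 24.5 CPM in iCRT14 head against 2.14 to 4.26 CPM.

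The members already differed between iCRT14 and untreated tips at 0 h, after 2 h in the inhibitor. Their median was 0.43 higher in iCRT14 head and 0.32 higher in iCRT14 foot on the log2 scale, where comparison peaks were 0.062 and 0.10 higher. In a test added after the data were seen, edgeR called 322 members higher and 25 lower in iCRT14 head (4.79 and 8.04% of all peaks) and 208 higher and 53 lower in iCRT14 foot (8.61 and 10.8% of all peaks). The untreated 0 h libraries had a part in the choice through their head-foot difference. With members chosen again without 1 replicate and set against the untreated 0 h library left out, the median was 0.44 ± 0.072 higher in iCRT14 head and 0.32 ± 0.064 higher in iCRT14 foot (SD over 5 left-out replicates). Without replicate 2 the calls became 218 higher and 12 lower in head, and 128 higher and 36 lower in foot. With library size alone as the scaling, which moved the median of all peaks in the foot comparison from 0.053 to 0.17, the share of foot calls that were higher went from 79.7 to 89.7%. Untreated and iCRT14 libraries were also unlike in depth at 0 h (20.6 to 30.1 against 12.3 to 20.4 M counts), and the part of this in the result was not tested.

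Within iCRT14 the sides were nearly alike at 0 and 3 h, with a slight lean to head. The median difference was 0.16 at 0 h and 0.14 at 3 h, against -0.039 and -0.036 for comparison peaks, with 605 and 591 members higher in head. At 0 h edgeR called 1 member higher in head (0.122% of all peaks) and none lower (0.0395%), while the fit to the 2 groups alone called 46 higher and 1 lower. At 3 h edgeR called no member in either direction (0% higher and 0.00459% lower of all peaks), with 161 members at an unadjusted p below 0.05, and DESeq2 also called none. Without replicate 4 edgeR called 14 members higher in head at 3 h. The 3 h difference in iCRT14 exceeded that in untreated tips in 1 member (0.0487% of all peaks) and fell short of it in none (0.0275%), in an added test. That test called 12 members, all with the larger difference in iCRT14, with the replicate block, and no member in the fit to the 4 groups alone.

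The members had no common position in the genome but often lay close together. They lay on 396 scaffolds, and 221 of them (27.5%) had another member within 10000 bp. Among the comparison peaks next to a member, 12.7% were members, against 0.958% of all comparison peaks. In all, 156 members formed 68 runs of consecutive comparison peaks. The longest was 7 peaks, 71794 to 71800, over 25529 bp of scaffold Sc4wPfr_439, which also held the most members of any scaffold, 15 of 419 comparison peaks. Peaks of a run share a stretch of the genome and are not independent observations.

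All 7 peaks of this run had the early course, opened on both sides at 3 h and higher in foot than in head then. Peak 71800 (1763740 to 1764810) had 1.93 to 3.33 CPM in head and 2.19 to 4.37 CPM in foot at 0 h. At 3 h it had 12.7, 9.39 and 19.5 CPM in head and 35.3, 17.3 and 23.9 CPM in foot, a rise of 2.34 ± 0.27 in head (SE, edgeR adjusted p = 9.5e-11) and of 2.99 ± 0.27 in foot (edgeR adjusted p = 1.18e-15). At 12 h the foot was back at 3.27, 4.27, 4.34, 5.14 and 4.14 CPM and the head at 14.5, 17.2, 20.9, 11.6 and 22.2 CPM. In iCRT14 it had 24.0, 14.3, 16.5, 8.66 and 20.7 CPM in head at 8 h and 5.91, 4.31, 6.27 and 8.29 CPM in foot (1.54 ± 0.29, edgeR adjusted p = 0.000463), and the 12 h difference was 2.08 ± 0.28 (edgeR adjusted p = 4.69e-08). The mean foot level of the run's widest peak, 71797 (1749738 to 1752798), was 6.83 CPM at 0 h, 69.1 CPM at 3 h, 12.8 CPM at 8 h and 13.2 CPM at 12 h, and its mean head level was 7.71, 43.0, 23.8 and 36.9 CPM at these times. The second longest run, peaks 110189 to 110193 on Sc4wPfr_884, holds peak 110190. The third longest, peaks 22984 to 22987 on Sc4wPfr_1618, took another course, with iCRT14 differences of -0.46 to 0.29 at 8 h against 0.74 to 1.61 in untreated tips. At 12 h its iCRT14 differences were all in favour of head, 0.45 to 0.58 against 0.62 to 1.41 in untreated tips.

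Members were narrower than the peaks they were drawn from but had more counts. Their median width was 549 bp against 697 bp for comparison peaks, and their median mean level in 12 h head was 12.6 against 5.61 CPM, the latter a quantity that the choice favours. Of comparison peaks under 300 bp wide 2.05% were members, and of those of 1000 bp or more 0.734%. The share of the difference kept in iCRT14 at 8 h was 25.6% in members under 300 bp, 33.3% from 300 to 600 bp, 47.7% from 600 to 1000 bp and 49.9% above that, while their median 12 h head levels went from 5.33 to 35.2 CPM. Width and level thus moved together, and their parts in the kept share were not tested.

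Some peaks lay very close to the rule's threshold on either side of it. The 3 members nearest to it, peaks 29669, 23429 and 9806, had 0.5008, 0.5010 and 0.5010 as the smaller of their 8 and 12 h differences, and the 3 nearest outside, peaks 78332, 97468 and 13358, had 0.4999, 0.4997 and 0.4995. In the peak set deposited for the untreated libraries alone, 784 of 106568 peaks passed the same rule. Its counts come from the same untreated libraries that chose the members, so it is not an independent check. Of the 803 members, 743 were overlapped for 50% or more of their length by a peak of that set, and in 719 this was a peak that passed.

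The deposited deviation scores for the TCFL2 motif were higher in head than in foot at 8 and 12 h. Such scores rate how accessible all peaks with a motif are in a library relative to the other libraries. In untreated head they ran from 2.16 to 3.98 at 8 h and from 3.60 to 6.24 at 12 h, in iCRT14 head from -0.19 to 0.98 at 8 h and from 2.52 to 3.87 at 12 h. In foot they ran from -2.33 to -0.45 and from -1.91 to -0.09 without iCRT14, and from -1.47 to -0.20 and from -0.85 to 0.31 with it. At 8 and 12 h all head scores lay above all foot scores with and without the inhibitor, by the narrowest margin in iCRT14 at 8 h. For the Tcf4 motif all head scores also lay above all foot scores at 8 and 12 h, with and without the inhibitor. Unlike the members, its untreated 0 h scores were lower in head (-3.06 to -1.01) than in foot (-0.86 to 0.080). From 0 to 3 h its untreated mean went from -1.81 to -2.15 in head and from -0.31 to -1.28 in foot, while the members rose. The untreated TCFL2 mean rose over that time, as the members did, from -1.99 to -0.26 in head and from -1.69 to -0.27 in foot. At 0 h the untreated TCFL2 scores of head (-2.35 to -1.67) and foot (-1.95 to -1.19) overlapped. These scores cover all peaks with a motif, and whether members hold either motif was not examined here.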

How the data were processed

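Polyps were sampled as described above, and groups were taken from the sample titles. The analysis used the authors' deposited whole-number read counts in a consensus set of 115968 peaks, 1 column for each of 71 ATAC-seq libraries. Per the submitters' processing notes the tools included Trimmomatic 0.36, Bowtie2 2.2.6, SAMtools 1.2, Picard 2.17.8, deepTools 3.3.1 and DiffBind, without their roles. The genome build, and whether positions count from 0 or 1, are not given in the sources used here. The smallest deposited count was 1 (3.94% of values, 0.0421% of member values), and whether 1 was added is not stated. Motif deviations are scores as the authors deposited them, relative to all libraries of their table. RNA-seq was not analysed here.

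Descriptive levels were CPM by column total with a pseudocount of 0.5. Tests used edgeR 4.0.16 (R 4.3.3): filterByExpr, TMM scaling, 1 mean per group over all 71 libraries, quasi-likelihood tests, two-sided, Benjamini-Hochberg adjustment over all 108934 peaks within a comparison, calls at adjusted p below 0.05. The scripts were tested on simulated data. Alternatives were other scalings, no filter, fits to the compared groups, a replicate block, DESeq2 1.42.0, other limits of the rule, and leaving out each replicate. Same-numbered libraries counted as paired where every correlation of their deviations exceeded 0.1, which held for untreated head and foot at 3 h (0.40 to 0.75 over 3 pairs). The sample titles number the replicates, and p-values rest on the spread between pooled libraries. The SEs come from the same edgeR fits and rest on that spread too. The SDs over left-out replicates are spreads between untreated replicates.

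The members and lists were chosen with earlier results of these data known. Peaks were named by rule: the 6 greatest untreated differences, those called higher in head at 3 h (up to 5), the 5 greatest called in iCRT14 at 8 and 12 h, the 5 greatest untreated differences with none in iCRT14, the 3 largest foot falls among peaks not opened in head, the 3 nearest on each side of the threshold, and the 3 longest runs.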

Additional observations from a re-analysis of the deposited data

Results flagged for a closer look

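Single libraries stood apart in 5 of 118 groups examined, where chance alone sets about 1 in 20 groups apart. In peak 54145 the iCRT14 foot replicate with 20.8 CPM at 8 h lay above the other 3. In peak 39954 an untreated foot library at 8 h had 22.2 CPM, above its group. Peak 109108 had 1 untreated foot library at 12 h with 9.03 CPM above its group and 1 iCRT14 foot library at 0 h with 6.27 CPM below its group. Peak 86112 had 1 untreated foot library at 0 h with 202 CPM above its group.

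Tests of a difference between differences called some members. The head-foot difference at 3 h was larger in iCRT14 than in untreated tips in 1 member. Within iCRT14 it was larger at 12 h than at 0 h in 108 members and larger at 12 h than at 8 h in 18 members, with the dependence on single replicates given in the report.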

How the results depend on the processing

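Threshold and scaling moved few descriptive values. A threshold of 0.75 left 244 members, and choosing without 1 replicate gave 764 to 899. The kept share at 8 h was 42.6% with TMM scaling and 33.4 to 42.5% without 1 replicate, and at 12 h it was 75.4 to 92.0% without 1 replicate.

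Counts of called members moved most where few were called. For side at untreated 3 h the count (13) became 0 in edgeR on the 2 groups alone, 188 with the replicate block, 22 in DESeq2 and 2 to 13 without 1 replicate. For side in iCRT14 the count at 0 h (1) became 2 with library size alone, 47 in the 2 groups alone, 69 with the replicate block, 72 in DESeq2 and 0 to 4 without 1 replicate. At 3 h (0) it was 0 to 14 without 1 replicate. At 8 h (125) it was 60 in the 2 groups alone and 69 to 131 without 1 replicate. For side by treatment at 3 h the count (1) became 0 in the groups alone, 12 with the replicate block, 5 in DESeq2 and 0 to 2 without 1 replicate. For 12 h against 0 h in iCRT14 (108) it became 211 with the replicate block and 34 to 124 without 1 replicate. For 12 h against 8 h (18) it became 38 with library size alone, 9 in the groups alone and 3 to 26 without 1 replicate.

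For changes from 0 h, leaving out 1 replicate gave 228 to 364 calls in untreated head at 3 h, and 205 to 287 in iCRT14 foot at 8 h, where 114 rose and 129 fell without replicate 2. In iCRT14 foot at 12 h library size alone gave 297 calls with most of them lower. The comparison of iCRT14 with untreated tips at 0 h gave 230 to 371 calls in head and 164 to 260 in foot. The replicate block moved no other total by more than 1.5 times, but members that fell went from 33 to 19 in untreated head at 3 h and from 23 to 45 in iCRT14 head at 12 h. With it, members lower in iCRT14 than in untreated head at 0 h went from 25 to 41, and members lower in iCRT14 head than foot at 8 h from 3 to 5. Among the comparisons examined for pairing, same-numbered libraries met the limit only for untreated head and foot at 3 h. In the others the lowest correlation ran from -0.29 to 0.036 and the highest from -0.0084 to 0.38. Untreated head and foot at 0, 8 and 12 h were not examined for pairing.

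Differences near 0 changed sign between settings. Peak 36395 in iCRT14 at 8 h went to -0.17 with the replicate block and ran from -0.15 to 0.36 without 1 replicate. Peak 14861 in iCRT14 at 12 h went to 0.27 with the replicate block and ran from -0.25 to 0.27. Without 1 replicate peak 52087 at 8 h ran from -0.29 to 0.18 and peak 48867 at 12 h from -0.15 to 0.22. None of these passed the test, which for peaks 14861 and 48867 follows from how they were picked. The causes of these shifts were not tested. The iCRT14 head libraries at 8 h were among the shallowest, and what depth limits there was not tested.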

Other observations

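In iCRT14 the members' rise at 3 h was less marked than in untreated tips when each is set against its own 0 h level. From 0 to 3 h the median change of the 803 peaks was 0.033 in iCRT14 head and 0.059 in iCRT14 foot on the log2 scale, against 0.34 and 0.41 in untreated tips. The comparison peaks stayed within 0.034 of 0 in these 4 comparisons. In iCRT14, 244 members were opened on both sides at 3 h and 171 were closed on both sides, against 389 and 72 in untreated tips. The iCRT14 levels at 0 h were already above the untreated ones, as given in the report, and the difference between these changes was not tested.

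Members were also dense on scaffold Sc4wPfr_817, where 11 of 100 comparison peaks were members (11.0%), against 0.958% of all comparison peaks. This scaffold was singled out after its values were seen.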
